A study of Mus musculus with 4 samples.

Results

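The genes described here are the IGF (insulin-like growth factor) binding proteins, the IGFs and the IGF receptors, 10 genes out of 30195 named on the arrays. They are Igfbp2, Igfbp3, Igfbp4, Igfbp5, Igfbp6, Igfbp7, Igf1, Igf2, Igf1r and Igf2r, and they were taken by name from the gene annotation of the 16 probes that carry them. RNA was measured in spleen endothelial cells of Ackr4GFP/wt mice, in which 1 copy of Ackr4, an atypical chemokine receptor, carries green fluorescent protein. Both groups came from these reporter mice and were sorted as living cells without the leukocyte protein CD45 and with the endothelial protein CD31. ACKR4-positive cells carried the reporter's fluorescence and ACKR4-negative cells did not. Ages, sexes and treatments were not given in the sources used here. Each of 2 independent sorts pooled 2 to 3 mice and gave 1 array of each population, so there were 2 ACKR4-positive and 2 ACKR4-negative arrays. The titles nevertheless give each array a single mouse number, 4 or 5, which was read as the number of the sort. P-values therefore rest on the spread between 2 arrays per group. The test used, limma, draws each gene's spread toward a value estimated over all genes tested. Each array averages a pool of mice.

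IGF1 and IGF2 are secreted growth factors. They signal through IGF1R, a receptor tyrosine kinase that feeds the PI3 kinase and AKT pathway and the RAS pathway, while IGF2R binds IGF2 and carries it, with mannose 6-phosphate-tagged enzymes, to lysosomes without signalling as a kinase. IGFBP2 to IGFBP6 bind IGFs with high affinity outside the cell, prolong their lifetime and limit or release them locally, and proteases set the IGFs free by cutting these carriers. IGFBP7 binds IGFs weakly and is abundant in vascular endothelium. In blood vessels this system takes part in endothelial growth and in the exchange of insulin-like signals between endothelium and the surrounding tissue.

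The sequences that lie directly upstream of 3 of these genes are shown because the results turn on these genes. Igfbp3 and Igf1r had lower signal in ACKR4-positive cells, and Igfbp6 had higher signal there in both sorts. Igfbp6 did not pass the main test, which leaves the sorts unpaired, and was called only with sort as a replicate block. Each sequence is the 250 bases before the gene's annotated start, 5′ to 3′ on the gene's own strand, from RefSeq on GRCm38.p6. The windows are chr11:7213924-7214173 on the minus strand for Igfbp3, chr7:67952007-67952256 on the plus strand for Igf1r and chr15:102143936-102144185 on the plus strand for Igfbp6. Capitals mark matches to 5 motifs searched on both strands, the common TATA box form TATAAA, a variant of it spelled TATATA (which reads the same on either strand), the GC box GGGCGG, the RBPJ core TGGGAA and an ETS core, CCGGAA.
Igfbp3: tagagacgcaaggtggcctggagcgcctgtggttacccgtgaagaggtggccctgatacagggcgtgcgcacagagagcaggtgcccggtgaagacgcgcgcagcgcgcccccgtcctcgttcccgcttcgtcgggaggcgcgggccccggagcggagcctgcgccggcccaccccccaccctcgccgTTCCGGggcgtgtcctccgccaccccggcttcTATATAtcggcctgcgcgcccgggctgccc
Igf1r: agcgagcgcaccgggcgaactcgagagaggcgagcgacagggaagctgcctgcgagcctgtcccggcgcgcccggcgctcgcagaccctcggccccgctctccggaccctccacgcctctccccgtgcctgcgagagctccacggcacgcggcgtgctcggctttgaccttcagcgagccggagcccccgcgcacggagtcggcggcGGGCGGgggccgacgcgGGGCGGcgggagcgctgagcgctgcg
Igfbp6: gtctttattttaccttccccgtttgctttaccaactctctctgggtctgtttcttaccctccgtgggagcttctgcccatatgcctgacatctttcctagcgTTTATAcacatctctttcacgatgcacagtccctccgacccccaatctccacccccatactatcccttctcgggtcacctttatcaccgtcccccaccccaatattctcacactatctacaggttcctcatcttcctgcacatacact
The Igfbp3 window held TATATA at -30 to -25 from the start, and CCGGAA on the other strand at -62 to -57. The Igf1r window held GGGCGG at -43 to -38 and at -26 to -21. The Igfbp6 window held TATAAA on the other strand at -148 to -143. Among 32841 mouse promoter windows of this length, 5.25% held TATATA, 12.4% TATAAA, 32.7% GGGCGG, 21.6% TGGGAA and 12.0% CCGGAA. The first pair of windows were rich in CpG, with 32 CpG in Igfbp3 and 42 in Igf1r, while Igfbp6 had 7 and the median window had 6. G and C made up 73.2% of the Igfbp3 window, 77.6% of the Igf1r window and 49.6% of the Igfbp6 window, against a median of 52.4%. These matches describe letters in the sequence and were not set against binding data.

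Levels are log2 processed signal minus the array's 75th percentile, so that 0 is that percentile, and differences are ACKR4-positive minus ACKR4-negative. The 75th percentile of signal lay between 590 and 949 on the 4 arrays, and 54.9% to 58.3% of probes were well above background. ACKR4-negative replicate 1 stood apart in the spiked control RNA, with a median signal of 847 against 2805 to 3432 on the other arrays. Ackr4, which checks the labels, had levels of -0.21 and 2.55 on the ACKR4-positive arrays, against -7.53 and -7.50 on the ACKR4-negative arrays. All 12 endothelial markers, Cldn5, Egfl7 and Pecam1 among them, had signal well above background on all 4 arrays, and by the test used below 2 of them, Kdr and Emcn, were lower in ACKR4-positive cells. Markers of other cells were also present: the megakaryocyte and platelet list (9 of 10 lower in ACKR4-positive cells by the test used below) summed to 0.673 and 2.19 times the 75th percentile on ACKR4-positive arrays, against 102 and 235 times on ACKR4-negative arrays. The mural and smooth muscle list (4 of 9 tested lower in ACKR4-positive cells, and 8 called with the replicate block described below) summed to 2.99 and 3.38 on ACKR4-positive arrays, against 60.3 and 102 on ACKR4-negative arrays. No marker of these 2 lists was at background on all arrays, although Itga2b, Gp5, Gp6, Myh11 and Rgs5 were well above background on neither ACKR4-positive array. In each list 5 genes were well above background on both ACKR4-positive arrays. On both ACKR4-negative arrays 10 megakaryocyte and platelet genes and 9 mural genes were. The remaining tested genes entered the test through the ACKR4-negative arrays alone, so these counts are given as a description. The erythroid list (1 of 6 tested lower in ACKR4-positive cells) summed to 23.0 and 84.4 on ACKR4-positive arrays, against 650 and 30.1 on ACKR4-negative arrays, so the sorts differed in direction. The macrophage list summed to 1.22 and 1.95 against 1.27 and 3.09, and the lymphocyte list to 0.787 and 2.03 against 0.720 and 1.61, each with 0 called by the test used below. With the replicate block 3 of 8 tested macrophage genes were called, C1qa, C1qc and Marco, each lower. It called 0 of 5 lymphocyte, 1 of 6 erythroid, 10 of 10 megakaryocyte and platelet and 4 of 12 endothelial genes. Among all genes the main test called 3.71% as lower and 1.91% as higher, and the replicate block 8.55% and 6.75%.

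Of the 10 genes, 2 fell in ACKR4-positive cells, Igfbp3 and Igf1r, and 0 rose. The test was limma across 17362 genes with p-values adjusted by Benjamini-Hochberg and a threshold of 0.05. It called 5.62% of all genes, 1.91% as higher and 3.71% as lower in ACKR4-positive cells. The other 7 tested genes were not called, and Igfbp2 was not tested because its probes did not reach the signal that testing asked for, well above background on each array of at least 1 group. Without adjustment, 4 of the 9 tested genes had p under 0.05, as did 16.3% of all genes tested. Their median difference was -0.60, beside 0.038 over all genes tested. Igfbp3 and Igf2 entered the test through the ACKR4-negative arrays alone and Igfbp6 through the ACKR4-positive arrays alone, so the count and median over the 9 tested genes are given as a description.

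**Figure D1:**
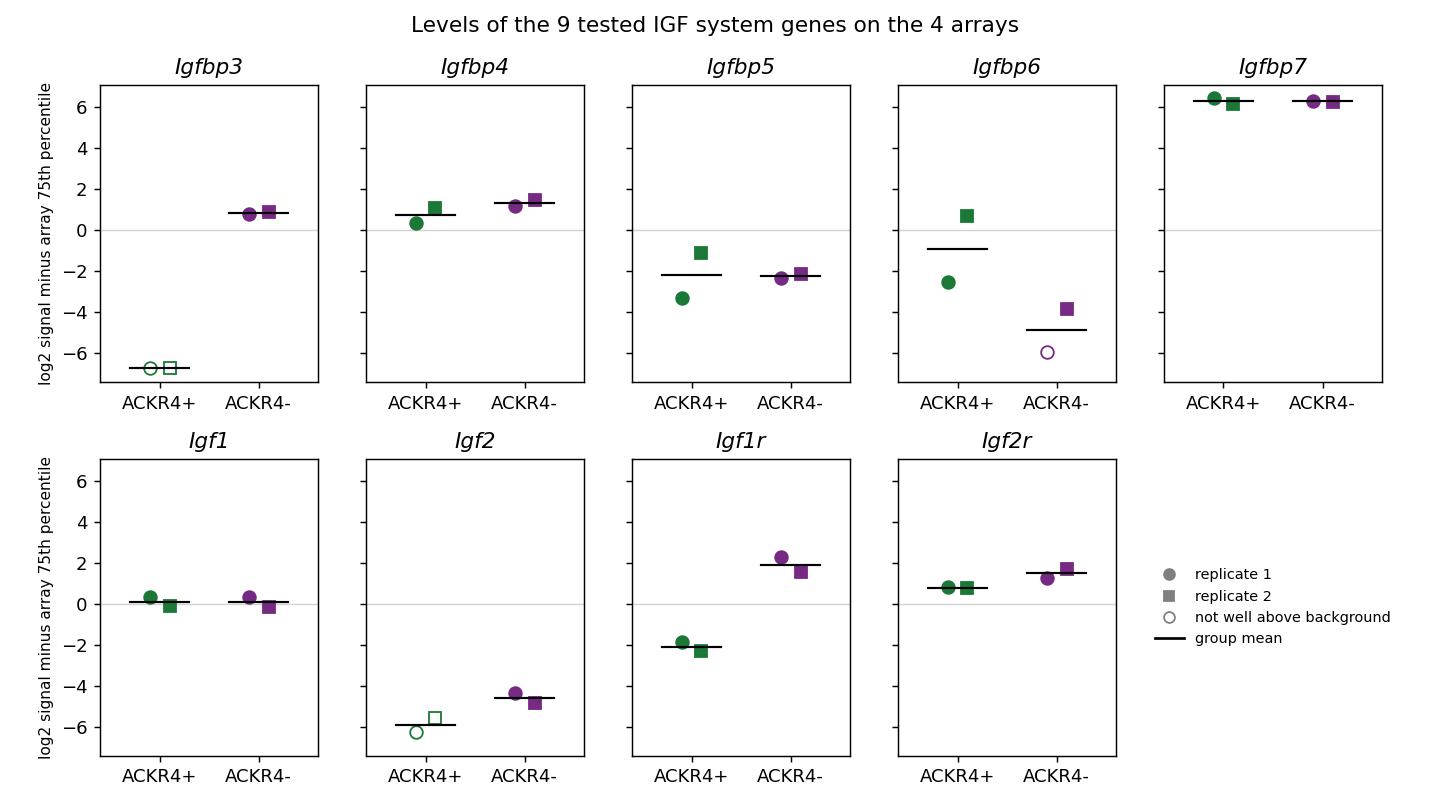
Level of each of the 9 tested genes (log2 signal minus the array's 75th percentile, vertical axis) on the 2 ACKR4-positive and the 2 ACKR4-negative arrays; circles are replicate 1, squares replicate 2, open symbols are not well above background and bars are group means. Igfbp3 and Igf1r lie lower on both ACKR4-positive arrays, Igfbp6 lies higher in each sort, and the groups overlap for Igfbp7 and Igf1.

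Among the binding proteins, Igfbp3 was the gene that fell. It encodes the main carrier of IGFs in blood, which also acts on cells without IGFs. Its level was -6.72 and -6.75 on the ACKR4-positive arrays, against 0.77 and 0.87 on the ACKR4-negative arrays. The groups did not overlap, and on the ACKR4-positive arrays the signal was not well above background. Igfbp3 was 89.9-fold lower in ACKR4-positive cells when their levels were raised to the lowest level that was well above background on each array. That fold is not a minimum, since it depends on the background correction, as given below. The fitted difference, -7.56 ± 0.26 on the log2 scale (standard error of the fit, n = 2 arrays per group, limma adjusted p = 0.00638), rests on the ACKR4-positive signal as measured at background, so its size is not settled. The measured difference between the 2 arrays of a sort was -7.49 in sort 1 and -7.62 in sort 2, again with ACKR4-positive signal at background.

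With normexp background correction, which raises dim values, the Igfbp3 difference was -4.33 and was still called (limma adjusted p = 0.00543). The probe lies at chr11:7106594-7106653 on mm9, the build in the files. A further Igfbp3 probe, designed for another transcript at chr11:7107949-7108008, had levels of -7.91 and -7.24 on the ACKR4-positive arrays and -5.48 and -5.54 on the ACKR4-negative arrays, well above background on none. In RNA of sorted cells in bulk, fewer cells that express a gene and less RNA per cell cannot be told apart. The megakaryocyte and mural marker sums given above lay in the same direction as Igfbp3 and Igf1r, and their part in these differences was not tested.

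The genes with the pattern nearest to that of Igfbp3, by Euclidean distance of their 4 levels after each gene's mean was removed, were Dll4 (distance 0.19), Lrrc3b (0.34) and Hey1 (0.36). Dll4 encodes a Notch ligand of arterial and tip endothelial cells and Hey1 encodes a transcription factor induced by Notch. Dll4 had levels of -5.34 and -5.45 on the ACKR4-positive arrays, against 2.34 and 2.30 on the ACKR4-negative arrays. Hey1 had levels of -5.04 and -4.86 on the ACKR4-positive arrays, against 2.25 and 2.80 on the ACKR4-negative arrays. With 4 arrays, such a distance groups genes that differ between the groups by the same amount, and here it rests on Igfbp3 levels that were at background on the ACKR4-positive arrays.

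Igfbp6 encodes a carrier with a preference for IGF2. Its level was -2.53 and 0.67 on the ACKR4-positive arrays, against -5.95 and -3.85 on the ACKR4-negative arrays. Each ACKR4-positive array was above both ACKR4-negative arrays, and replicate 2 was the higher array in each group. The difference was 3.97 ± 1.29 (n = 2 arrays per group) and was not called (limma adjusted p = 0.236), with a 95% interval from 0.54 to 7.40. The 2 sorts gave 3.42 and 4.51. With sort as a replicate block Igfbp6 was called (limma adjusted p = 0.00183), in a fit that called 15.3% of all genes, 6.75% as higher and 8.55% as lower. ACKR4-negative replicate 1 did not measure it well above background, and without that array the Igfbp6 difference was 2.92 (limma adjusted p = 0.577). The probe lies at chr15:101979852-101979911 on mm9.

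Of 6 mesothelial markers, 2 were tested, Msln and Wt1, and neither was called by the main test. Msln entered the test through the ACKR4-positive arrays alone and Wt1 through the ACKR4-negative arrays alone, so the filter favoured the direction of each. The replicate block, which called 15.3% of all genes, called both. Msln, the mesothelin gene, had levels of -4.30 and -1.62 on the ACKR4-positive arrays, against -7.46 and -7.45 on the ACKR4-negative arrays (limma adjusted p = 0.081, and 0.0102 with the replicate block). Krt19, a keratin of simple epithelia and mesothelium, had -6.52 and -1.51 on the ACKR4-positive arrays and -7.28 and -5.42 on the ACKR4-negative arrays, and was well above background on ACKR4-positive replicate 2 alone. The same held for Upk3b and Upk1b, while Lrrn4 was at background on all arrays. Wt1, the gene of a mesothelial transcription factor, differed the other way, with -6.09 and -5.53 on ACKR4-positive arrays and -4.65 and -3.83 on ACKR4-negative arrays (limma adjusted p = 0.151, and 0.00978 with the replicate block). The 6 genes of the list summed to 0.0891 and 0.871 times the 75th percentile on the ACKR4-positive arrays, against 0.0711 and 0.120 on the ACKR4-negative arrays. The fibroblastic reticular and fibroblast list had 1 of 9 tested genes called, as lower (3.71% of all genes), and a median difference of -0.67. In both sorts 1 of its genes was higher and 6 were lower, beside 38.6% and 34.5% of all genes. The higher gene, Dcn, had -0.09 and 0.99 on ACKR4-positive and -3.18 and -0.66 on ACKR4-negative arrays (limma adjusted p = 0.337, and 0.0162 with the replicate block). The replicate block called 5 of the 9 tested genes, Dcn as higher and Cxcl13, Il7, Lepr and Tcf21 as lower. It called 6.75% of all genes as higher and 8.55% as lower. The part of either list in the Igfbp6 difference was not tested.

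Igfbp4 encodes a carrier that restrains IGF action until it is cut by the protease PAPP-A. Its level was 0.36 and 1.09 on the ACKR4-positive arrays, against 1.20 and 1.46 on the ACKR4-negative arrays. The groups did not overlap, but the difference of -0.60 ± 0.37 was not called (limma adjusted p = 0.571) and its 95% interval ran from -1.57 to 0.37. Igfbp5, whose product also binds extracellular matrix, had levels of -3.30 and -1.10 on the ACKR4-positive arrays, against -2.36 and -2.12 on the ACKR4-negative arrays. The ACKR4-positive arrays spanned the ACKR4-negative ones, and the 2 sorts gave opposite signs, -0.94 and 1.03. The Igfbp5 difference was 0.045 ± 0.78 (limma adjusted p = 0.991), with an interval from -2.02 to 2.11.

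Igfbp7, an extracellular protein of vascular endothelium, had levels of 6.43 and 6.18 on the ACKR4-positive arrays, against 6.32 and 6.27 on the ACKR4-negative arrays. The groups overlapped and no spot of the probe was saturated. The Igfbp7 difference was 0.0063 ± 0.27 (limma adjusted p = 0.996), with an interval from -0.72 to 0.73. Igfbp2, a carrier abundant in fetal life, was well above background on none of the arrays with either of its probes. Its levels on the brighter probe were -6.60 and -6.40 on the ACKR4-positive arrays and -6.52 and -7.10 on the ACKR4-negative arrays, which give no fold.

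**Figure D2:**
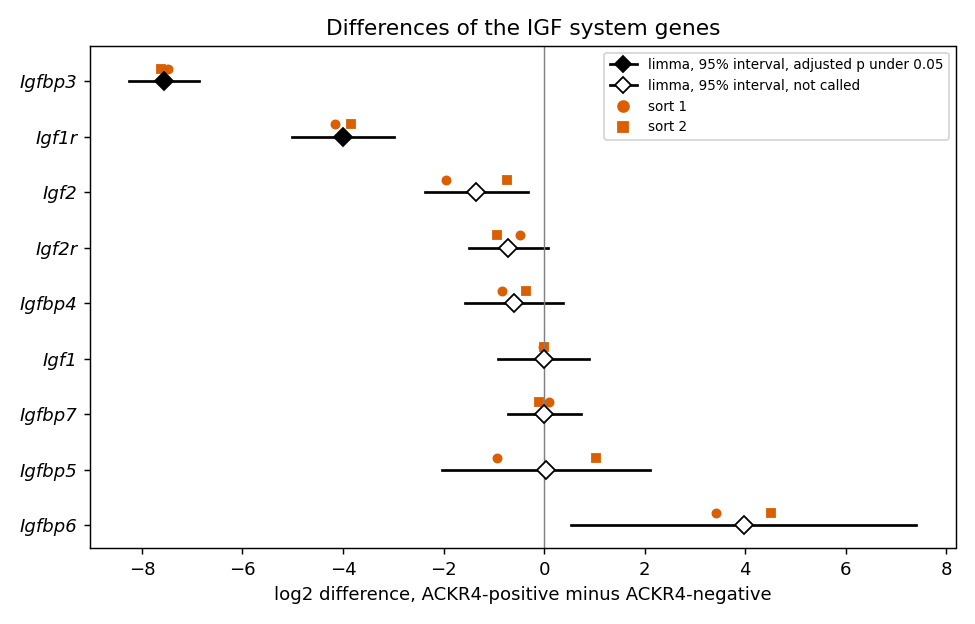
Difference of each tested gene (log2, ACKR4-positive minus ACKR4-negative, horizontal axis), with limma's estimate and 95% interval as diamonds and lines and the difference within each sort as orange symbols. Filled diamonds passed an adjusted p of 0.05; the sizes of Igfbp3 and Igf2 rest on ACKR4-positive signal at background; Igfbp6 has the widest interval, from 0.54 to 7.40, with both sorts above 0.

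Of the receptors, Igf1r fell and Igf2r was not called. Igf1r, which encodes the signalling receptor of both IGFs, had levels of -1.89 and -2.29 on the ACKR4-positive arrays, against 2.28 and 1.54 on the ACKR4-negative arrays. The groups were apart by more than the spread within either, and the signal was well above background on all 4 arrays, so this fold is measured on both sides. Igf1r fell by 4.00 ± 0.38 on the log2 scale, a 16.0-fold lower signal in ACKR4-positive cells (n = 2 arrays per group; limma adjusted p = 0.0143), with a 95% interval from -5.01 to -2.99. The sorts gave -4.16 and -3.83. The probe lies at chr7:75378461-75378520 on mm9. Igf2r, which encodes the clearance and lysosomal sorting receptor, had levels of 0.80 and 0.75 on the ACKR4-positive arrays, against 1.28 and 1.69 on the ACKR4-negative arrays. Both ACKR4-positive arrays were below both ACKR4-negative ones, but the difference of -0.71 ± 0.29 was not called (limma adjusted p = 0.361), with an interval from -1.49 to 0.074.

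Of the ligands, neither was called. Igf1 had 5 probes, and the brightest, designed for NM_184052 and lying at chr10:87378456-87378515 on mm9, stood for the gene. Its level was 0.33 and -0.13 on the ACKR4-positive arrays, against 0.35 and -0.14 on the ACKR4-negative arrays, and replicate 1 was above replicate 2 in each group by about the same amount. The Igf1 difference was -0.0032 ± 0.34 (limma adjusted p = 0.999), with an interval from -0.91 to 0.90. The other 4 Igf1 probes were designed for NM_010512 and lie further along the chromosome. A pair of them that overlap, at chr10:87393561-87393620 and chr10:87393581-87393640, gave differences of -1.49 (adjusted p = 0.529 over probes, by limma) and -1.17 (adjusted p = 0.610), in a fit over probes that called 5.38% of them, 1.76% as higher and 3.62% as lower. A further probe at chr10:87395924-87395983 gave 0.063 (limma adjusted p = 0.965), and the last, at chr10:87399581-87399640, was not tested. The overlapping pair were dimmer on the ACKR4-positive array in each sort, so the Igf1 probes did not give like differences, and none was called. Because the pair overlap, they are not independent measures. The first of the pair was not well above background on ACKR4-positive replicate 1 and entered the test through the ACKR4-negative arrays alone.

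**Figure D3:**
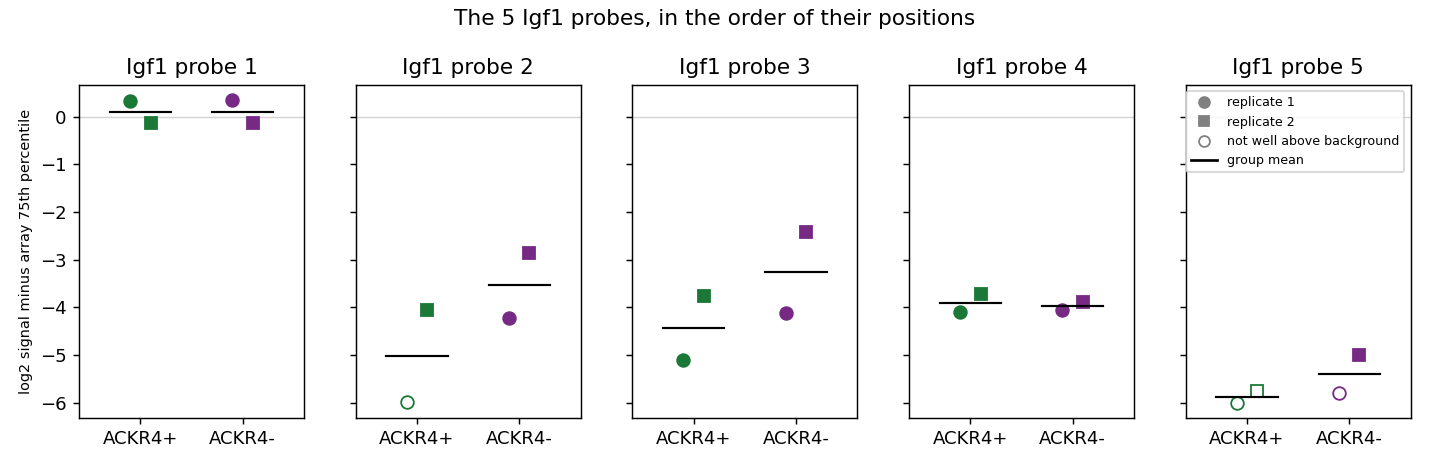
Level of each of the 5 Igf1 probes (log2 signal minus the array's 75th percentile, vertical axis) on the 2 ACKR4-positive and 2 ACKR4-negative arrays, in the order of probe position; symbols are as in the plot of levels by gene. Probe 1 stood for the gene, probes 2 and 3 overlap and lie lower on the ACKR4-positive array of each sort, and probe 5 was not tested; levels of different probes are not comparable.

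Igf2 was dim. Its level was -6.27 and -5.58 on the ACKR4-positive arrays, neither well above background, against -4.33 and -4.83 on the ACKR4-negative arrays. The groups did not overlap. The Igf2 difference was -1.34 ± 0.39 (limma adjusted p = 0.178). With the ACKR4-positive levels lifted in the way given for Igfbp3, Igf2 was 2.13-fold lower in ACKR4-positive cells. This fold is not a minimum, since normexp background correction gave a difference of -0.39. Igf2 was not called with the replicate block either (limma adjusted p = 0.0624). H19, the imprinted noncoding RNA that neighbours Igf2, had levels of -5.16 and -4.46 on the ACKR4-positive arrays, against -2.95 and -3.20 on the ACKR4-negative arrays. The H19 difference of -1.73 ± 0.36 was not called by limma (adjusted p = 0.081), and the replicate block gave an adjusted p of 0.0195.

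The further genes of the pathway were taken as 6 lists of 77 genes in all, 76 of them on the arrays and 58 tested. Of these, 1 rose and 4 fell by the test on all genes, 8.62% of those tested beside 5.62% of all genes, and their median difference was 0.090. A list of further ligand, carrier and receptor genes had 0 called of 3 tested by limma, with 1 at an unadjusted p under 0.05 (16.3% of all genes) and 1 with the replicate block (15.3% of all genes). The gene in question, Insr, which encodes the insulin receptor, had levels of -0.48 and -0.98 on the ACKR4-positive arrays, against 0.33 and 0.10 on the ACKR4-negative arrays. Its difference was -0.94 ± 0.32 (limma adjusted p = 0.248, and 0.0481 with the replicate block). The insulin genes Ins1 and Ins2 differed the other way, by 0.42 and 0.62, and were called by neither fit. The median difference of the list was 0.42. In both sorts 2 of its genes were higher and 1 was lower, beside 38.6% and 34.5% of all genes. Igfals, whose product completes the circulating complex with IGFBP3, and Igfbp1 were well above background on none of the arrays.

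Among proteases that cut IGF binding proteins and their inhibitors, 2 of 6 tested genes fell, 0 rose, and 4 were not called. Of all genes, 3.71% fell and 1.91% rose. Htra1 encodes a secreted serine protease that itself has an IGFBP-like domain and is therefore in 2 lists. It had levels of -0.31 and -0.73 on the ACKR4-positive arrays, against 4.27 and 4.37 on the ACKR4-negative arrays, and fell by 4.84 ± 0.30 on the log2 scale (limma adjusted p = 0.00776). Plat, which encodes the tissue plasminogen activator, had levels of -6.59 and -6.85 on the ACKR4-positive arrays, neither well above background, against -1.56 and -2.12 on the ACKR4-negative arrays. Plat therefore entered the test through the ACKR4-negative arrays alone. With the ACKR4-positive levels lifted in the way given for Igfbp3, Plat was 14.2-fold lower in ACKR4-positive cells. This fold is not a minimum, since it depends on the background correction. The fitted difference was -4.88 (limma adjusted p = 0.0093), and normexp background correction moved it to -1.99, still called. Both groups were apart by far more than the spread within them for these 2 proteases.

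Pappa, which encodes the protease PAPP-A, had levels of -3.87 and -0.46 on the ACKR4-positive arrays, against -3.95 and -2.11 on the ACKR4-negative arrays. The groups overlapped, and the Pappa difference was 0.86 ± 1.31 (limma adjusted p = 0.855). Stc2, which encodes the PAPP-A inhibitor stanniocalcin 2, had levels of -2.24 and -1.14 on the ACKR4-positive arrays, against -4.73 and -3.46 on the ACKR4-negative arrays. Its difference of 2.41 ± 0.62 was not called by limma (adjusted p = 0.138), and the replicate block gave an adjusted p of 0.00237. Ctsd, the gene of the lysosomal protease cathepsin D, had levels of 5.51 and 5.73 on the ACKR4-positive arrays, against 5.01 and 5.17 on the ACKR4-negative arrays, and was not called (0.53 ± 0.27, limma adjusted p = 0.484).

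Proteins outside the family that carry an IGFBP-like domain had 3 of 8 tested genes lower, Esm1, Ccn2 and Htra1, and 0 higher. Among all genes 3.71% were lower and 1.91% higher, and Htra1 is also counted among the proteases. Esm1 encodes endocan, a secreted proteoglycan of activated and tip endothelial cells. Its level was -4.06 and -2.86 on the ACKR4-positive arrays, against 7.39 and 7.78 on the ACKR4-negative arrays, and it fell by 11.05 ± 0.49 on the log2 scale (limma adjusted p = 0.00638). Ccn2, which encodes connective tissue growth factor, had levels of 2.61 and 2.40 on the ACKR4-positive arrays, against 7.89 and 7.64 on the ACKR4-negative arrays, and fell by 5.26 ± 0.28 (limma adjusted p = 0.00686). Its relative Ccn1 was not called, with levels of 4.70 and 3.12 on the ACKR4-positive arrays and 3.26 and 2.61 on the ACKR4-negative arrays (0.98 ± 0.62, limma adjusted p = 0.591). Crim1, a transmembrane protein gene, had 0.64 and -0.82 on the ACKR4-positive arrays and 0.15 and -0.68 on the ACKR4-negative arrays (0.18 ± 0.62, limma adjusted p = 0.948). The other members, Igfbpl1, Htra4, Ccn4, Ccn5 and Ccn6, were well above background on none of the arrays. The 8 tested genes had a median difference of -0.77.

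**Figure D4:**
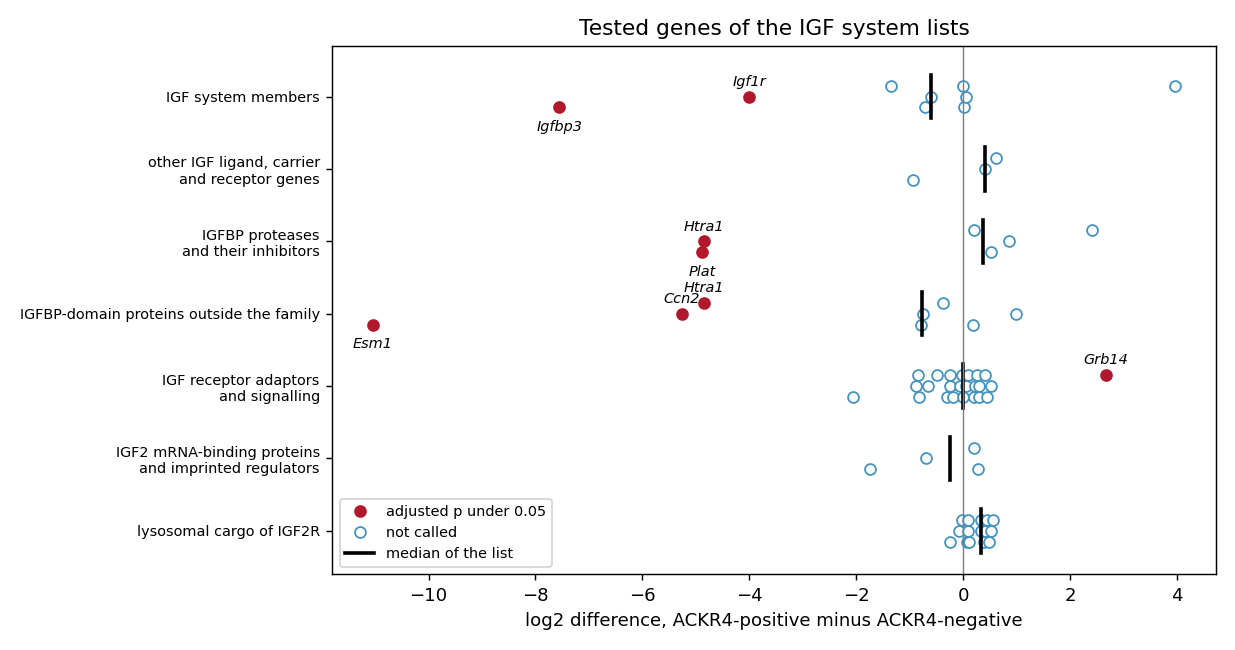
Difference (log2, ACKR4-positive minus ACKR4-negative, horizontal axis) of every tested gene in the 7 lists of the IGF system, 1 row per list, with black bars at the list medians and filled red points at an adjusted p under 0.05. Esm1 lies furthest to the left at -11.05, Grb14 is the called gene on the right at 2.67, and the lysosomal genes lie within 1 log2 unit of 0.

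In the signalling list of adaptors, kinases and their regulators, 1 of 24 tested genes rose, 0 fell and 23 were not called. Of all genes, 1.91% rose and 3.71% fell. The median difference of the list was -0.012. The gene that rose was Grb14, whose product is an adaptor that inhibits the insulin receptor kinase. Its level was 0.0016 and 0.50 on the ACKR4-positive arrays, against -2.91 and -1.94 on the ACKR4-negative arrays, a rise of 2.67 ± 0.45 (limma adjusted p = 0.0474). This call lies at the threshold and was lost when any 1 of the 4 arrays was left out (adjusted p from 0.0587 to 0.151), and under quantile normalization (0.0503), no filter on dim probes (0.0534) and the stricter filter (0.0593). Grb10, the related adaptor, was lower, at -5.33 and -6.00 on the ACKR4-positive arrays against -3.36 and -3.83 on the ACKR4-negative arrays. The Grb10 difference of -2.07 ± 0.38 was not called by limma (adjusted p = 0.0594), and the replicate block gave an adjusted p of 0.00389.

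Akt1, the kinase gene downstream of the receptor, had levels of 4.01 and 4.00 on the ACKR4-positive arrays, against 4.45 and 4.19 on the ACKR4-negative arrays, and was not called (-0.31 ± 0.27, limma adjusted p = 0.732). Foxo1, the gene of a transcription factor that AKT holds out of the nucleus, had 2.65 and 2.55 on the ACKR4-positive arrays, against 3.59 and 3.31 on the ACKR4-negative arrays. Its difference of -0.85 ± 0.28 was not called (limma adjusted p = 0.236). The list holds genes of the pathway and does not measure its activity.

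The list of IGF2 mRNA-binding proteins and imprinted regulators had 0 of 4 tested genes called by limma, with 1 at an unadjusted p under 0.05 (16.3% of all genes) and 1, H19, with the replicate block (15.3% of all genes). Airn, the noncoding RNA antisense to Igf2r, had levels of -0.47 and -0.12 on the ACKR4-positive arrays, against 0.76 and 0.023 on the ACKR4-negative arrays (-0.69 ± 0.38, limma adjusted p = 0.512). Ctcf, which encodes the insulator protein that binds the imprinting control region between Igf2 and H19, had 1.80 and 1.63 on the ACKR4-positive arrays, against 1.56 and 1.46 on the ACKR4-negative arrays (0.20 ± 0.27, limma adjusted p = 0.828). Igf2bp1, Igf2bp2, Igf2bp3 and Igf2os were well above background on none of the arrays.

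The cargo that IGF2R carries to lysosomes, with the enzymes that tag it, had 0 of 15 tested genes called by limma, 0 at an unadjusted p under 0.05 and 0 with the replicate block. The median difference was 0.33, beside 0.038 over all genes, and 8 of the 15 genes were higher and 2 lower on the ACKR4-positive array in both sorts, beside 38.6% higher and 34.5% lower among all genes. Gla, the alpha-galactosidase gene, had levels of 6.50 and 7.22 on the ACKR4-positive arrays, against 6.54 and 7.05 on the ACKR4-negative arrays, a difference of 0.063 ± 0.39 (limma adjusted p = 0.972). Ctsb, the cathepsin B gene, had 6.33 and 6.82 on the ACKR4-positive arrays, against 5.94 and 6.08 on the ACKR4-negative arrays. Its difference of 0.56 ± 0.31 was not called (limma adjusted p = 0.514).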

How the data were processed

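RNA from sorted spleen endothelial cells was labelled and hybridised to 1-colour Agilent arrays. Per the labels' protocols, 6 to 20 ng of total RNA was amplified in 1 round. Per the file headers, the authors' scanner files were made with Agilent Feature Extraction 10.7.3.1, and the deposited intensity is a processed signal from which background was subtracted and spatial trends were removed array by array. Surrogates stand in for low values, and nothing was scaled across arrays. All 4 arrays lay on 1 slide and in 1 scan, so no slide block was possible. Of 157716 non-control spots on each array, 1.91% to 1.96% were marked as outliers and left out. A probe's remaining spots, 4 at most, gave a mean log2 signal, less the array's 75th percentile. Testing required a group in which each array had over 50% of the probe's spots well above background, and the brightest tested probe stood for a gene. Of 39429 probes, 27508 were named by accession through a RefSeq table, 3544 carried a current symbol, 167 were named through another probe of the gene and 8210 kept the name in the file. Groups were compared 2-sided with lmFit and eBayes of limma 3.58.1 under R 4.3.3, and p-values were adjusted by Benjamini-Hochberg over 17362 genes. Figures were drawn with matplotlib.

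The members and lists were chosen with earlier results of these data known. All members are named. Of each further list, called genes and up to 2 uncalled genes with the highest mean level are named. Insr, Ins1, Ins2, Stc2, Grb10, H19, Pappa and the marker genes named in the report, and genes listed as not above background, were named after their values were seen. Arrays with 1 replicate number also share a mouse number in their titles and were read as 1 sort, so the numbers pair the arrays. Across 17362 genes, the difference of replicate 1 minus replicate 2 in ACKR4-positive cells correlated with that in ACKR4-negative cells at r = 0.605 (a correlation across genes, which are not independent). Alternatives were normexp background correction (offset 50), quantile normalization, centring on the median, dropping or tightening the filter on dim probes, the deposited value table, the mean of a gene's probes, each probe on its own, outlier spots kept, a trended prior, an adjusted p under 0.1, the replicate block and each array left out. The deposited table of processed intensities correlated with the log2 levels of the scanner files at 0.995 to 0.998, and how the authors scaled it is not given in the sources used here. Coordinates of probes are on mm9 as in the files, and those of promoter windows are on GRCm38.p6.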

Additional observations from a re-analysis of the deposited data

How the results depend on the processing

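Igf1r was called in 16 of 16 alternatives (differences from -4.37 to -3.57, adjusted p from 0.000794 to 0.0437), and Igfbp3 in the 15 in which it was tested (-7.61 to -4.33). The stricter filter, which asks for signal on all 4 arrays, left Igfbp3 and Igf2 and Igfbp6 untested, so 1 of the IGF genes was called, with 3 of the further lists and 441 of all genes. The replicate block called 3 of the IGF genes (Igfbp6 added), 9 of the further lists in place of 5, and 2656 of all genes in place of 976, and it left the calls of the other 8 IGF genes as they were. Without 1 array at a time, 2 of the IGF genes and 4 of the further lists were called each time, while 387 (without ACKR4-negative replicate 1) to 892 (without ACKR4-positive replicate 2) of all genes were, with 511 without ACKR4-positive replicate 1 and 448 without ACKR4-negative replicate 2; the arms then hold 1 array assumed to vary like the others. For the higher counts under the replicate block, the cause was not tested; the stricter filter tests fewer genes, and leaving out an array leaves fewer arrays. Uncalled differences near 0 changed sign: Igf1 was 0.066 with median centring, -0.65 as the mean over its probes and -0.25 to 0.24 when an array was left out, Igfbp5 was -1.06 to 1.15, and Igfbp7 was -0.12 to 0.13. Igfbp6 ranged from 2.37 to 5.56 without 1 array. Median centring placed the median of all genes at 0.11, in place of 0.038. Dim genes have signal at background on 1 side, so their folds depend on the background correction, and normexp shrank their differences. With 2 arrays per group, the intervals of uncalled genes such as Igfbp5 leave room for changes of several-fold.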

Other observations

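The upstream windows of the other IGF genes were searched for the same motifs. All 10 genes had at least 1 RefSeq promoter entry, 14 in all, and 8 had a single entry. Of these 8, 7 had more CpG than the median window, the exception being Igf1 with 5. The Igfbp7 window held GGGCGG at 4 positions, Igf2r at 3 and the first Igfbp2 window at 3. Igfbp4 held TATAAA at -28 to -23. Matches to TGGGAA were in windows of Igf1 and Igf2. These are descriptions of sequence and were not set against the expression differences.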
